A study of Mus musculus with 2 samples.

Results

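Ferritin heavy chain (Fth1), ferritin light chain (Ftl1), ferroportin (Slc40a1), transferrin receptor 1 (Tfrc), transferrin (Trf), the divalent metal transporters Slc11a1 and Slc11a2, heme oxygenase 1 (Hmox1), biliverdin reductase B (Blvrb) and the ferritin receptor of autophagy Ncoa4 were followed across the cells of a mouse pancreatic tumour. These 10 genes were taken by symbol from 32285 in the count tables, and each symbol matched 1 gene. They were picked with levels from these libraries already known, so their levels and ratios are descriptions and carry no test.

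Single-cell RNA was sequenced from tumours of KPPC mice, a genetically engineered model of pancreatic ductal cancer, that were 6 weeks old. The first library came from mice that received vehicle and the other from mice that received takinib at 50 mg/kg, each over 14 days. Takinib inhibits the kinase TAK1 (Map3k7). Both groups share the tumour model, the labels do not give the number of mice behind a library, and with 1 library per group no difference below has a replicate check.

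Iron enters most cells as transferrin-bound iron through Tfrc, is stored inside ferritin shells of heavy and light chains, and leaves through Slc40a1, the only known cellular iron exporter of mammals. Ncoa4 carries ferritin to lysosomes for breakdown. Macrophages that take up old red cells open heme with Hmox1, Blvrb is a biliverdin and flavin reductase abundant in red cells, and Slc11a1 moves divalent metal out of phagosomes of myeloid cells.

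Iron itself acts on several of these transcripts through the iron-responsive element, a hairpin that binds the iron regulatory proteins encoded by Aco1 and Ireb2: in a 5′ UTR it blocks translation when iron is low, and in the 3′ UTR of Tfrc it protects the RNA. The elements are shown because this step changes protein without needing a change in RNA for the 5′ sites, and RNA alone was measured here. The search took a C, 5 bases, the loop CAGTGN and the pairing bases after it on the transcript strand, with N other than G and with the 5 bases on each side of the loop paired (G to T pairs allowed). Capitals mark the 6-base loop, positions are on GRCm38 (mm10) with the GENCODE annotation, and each site lies in an exon. The Fth1 site is in the 5′ UTR at chr19:9982732-9982760 on the plus strand, the Ftl1 site in the 5′ UTR at chr7:45459779-45459807 on the minus strand, and the Slc40a1 site in the 5′ UTR at chr1:45925465-45925493 on the minus strand. The 4 Tfrc sites are in the 3′ UTR on the plus strand, at chr16:32631219-32631247, chr16:32631598-32631626, chr16:32631663-32631691 and chr16:32631710-32631738.
Fth1: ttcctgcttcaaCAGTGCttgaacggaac
Ftl1: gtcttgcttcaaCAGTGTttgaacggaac
Slc40a1: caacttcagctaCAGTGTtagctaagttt
Tfrc: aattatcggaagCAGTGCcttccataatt
Tfrc: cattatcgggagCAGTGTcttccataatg
Tfrc: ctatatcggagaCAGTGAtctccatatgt
Tfrc: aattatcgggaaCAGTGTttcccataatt
Such a match was present in the 5′ UTR of 23 of 20916 genes (0.11%) and in the 3′ UTR of 100 of 21039 (0.475%). The other 6 genes held no match to these letters and this pairing, which says nothing of other forms of the element.

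After filters and removal of called doublets, 9558 vehicle and 25183 takinib cells remained, with medians of 3556 and 2887 UMIs (molecules counted once by their molecular tag) and 8.70% and 1.79% mitochondrial UMIs. Of the barcodes past the filters, 400 occurred in both libraries, 4.05% of vehicle and 1.49% of takinib. Cells were grouped into classes by marker genes, and UMIs of a class in a library were summed and scaled to counts per 1000000 UMIs (CPM). Both libraries held at least 100 cells of 6 classes, named by their markers: macrophage-like (4945 vehicle and 4269 takinib cells), epithelial-like (910 and 1043), fibroblast-like (644 and 304), T-like (221 and 1034), B-like (206 and 670) and dendritic-like (136 and 117). Neutrophil-like cells were 11775 in takinib and 18 in vehicle, and erythroid-like cells 491 and 2, so those classes are given for takinib alone. The vehicle tables also held 376283 near-empty barcodes of 1 to 100 UMIs, in which Fth1 stood at 6342 CPM, Ftl1 at 2099, Trf at 708 and Hmox1 at 67.5. These free-RNA levels lay above those of vehicle epithelial-like, T-like, B-like and dendritic-like cells for all 4 genes. No takinib barcode held under 500 UMIs, so free RNA could not be read there.

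Square brackets give 95% intervals, exact Poisson for levels and exact conditional binomial for ratios, and they cover counting error only. A gene counts as past 2-fold where the ratio of CPM exceeded 2 in either direction and at least 1 library of the class held 50 counts. In macrophage-like cells 2 of the 10 genes were higher in takinib, where 5.93% of all 11544 genes compared were, and 0 lower, where 5.05% were. Epithelial-like cells had 4 higher (8.39% of all genes) and 0 lower (6.57%). Among fibroblast-like cells 4 were higher (7.26%) and 0 lower (11.5%). In T-like cells 3 were higher (9.34%) and 1 lower (3.33%), in B-like cells 1 higher (6.93%) and 0 lower (1.92%), and in dendritic-like cells 1 higher (5.69%) and 0 lower (3.84%). The median log2 ratio of the 10 genes was 0.74 in macrophage-like cells, beside 0.04 over all genes compared there. The corresponding medians were 0.67 and -0.11 for epithelial-like cells, and 0.39 and -0.11 for fibroblast-like cells. All 10 genes reached 50 counts in macrophage-like and in epithelial-like cells, 9 did in fibroblast-like, 7 in T-like, 4 in B-like and 3 in dendritic-like cells. Of those, some reached it only in the library where they were higher: 1 gene among epithelial-like, 1 among dendritic-like, and 2 each among fibroblast-like and T-like cells. Just outside the limit were Fth1 and Ncoa4 in macrophage-like cells, each with a log2 ratio of 0.97, and just inside was Slc40a1 there at 1.24.

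**Figure D1:**
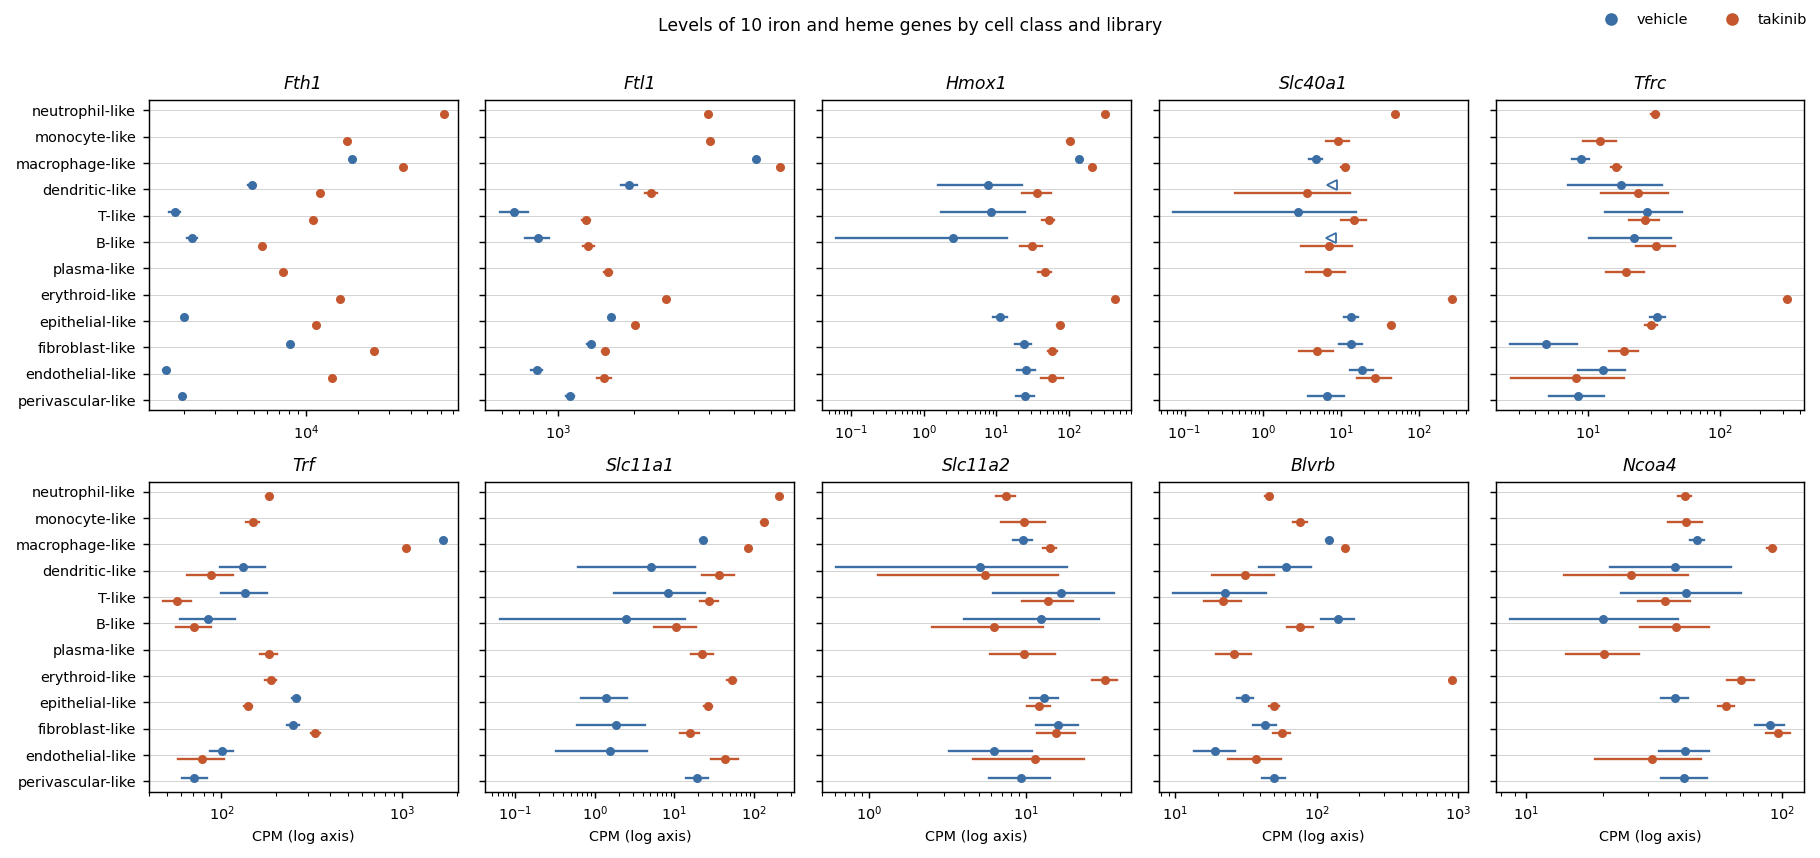
CPM of the 10 genes (log axes, a separate scale in each panel) in 12 cell classes, vehicle in blue and takinib in orange, with exact 95% Poisson intervals. Units under 80 cells are not drawn, and open triangles stand for a count of 0 placed at the level of 3 counts. Fth1 was highest in neutrophil-like cells, Trf in macrophage-like cells, and Tfrc, Slc40a1 and Blvrb in erythroid-like cells of takinib.

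RNA that neutrophils carry moved with the treatment in every class compared. The 9 neutrophil markers together held 110 to 489 CPM in the 6 vehicle classes and 4276 to 13709 CPM in the same takinib classes, with all 9 markers above 0 in takinib. In vehicle the markers at 0 were Cxcr2 in dendritic-like and Retnlg in T-like cells. How much of each difference this RNA accounts for was not tested beyond the subtraction that follows. Takinib neutrophil-like cells had 61829 CPM of Fth1, 310 of Hmox1 and 212 of Slc11a1. Each ratio was therefore also taken after subtracting from takinib as much of the neutrophil-like profile as S100a8 and S100a9 would allow at most, which removed 3.39% (B-like) to 10.7% (epithelial-like) of UMIs. Of the 16 values past 2-fold in the 6 classes, 8 remained so.

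**Figure D2:**
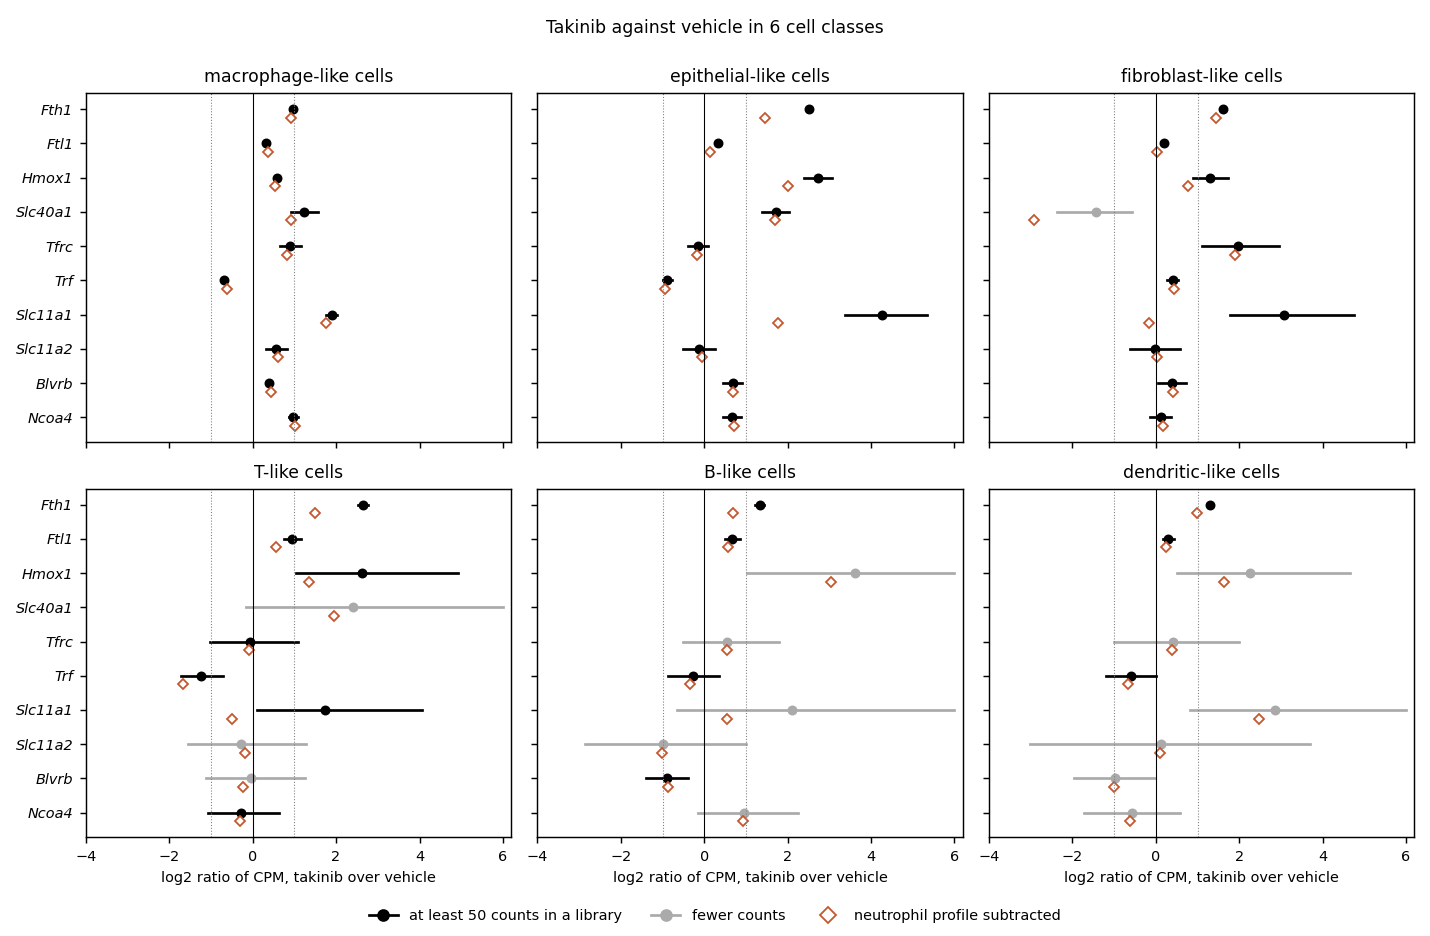
Log2 ratio of CPM, takinib over vehicle, for the 10 genes in 6 classes. Dots with bars are values as deposited with 95% counting intervals (grey under 50 counts in both libraries), open diamonds the ratio after the neutrophil profile was subtracted, and dotted lines mark 2-fold; bars end at the axis limits, and a gene at 0 in vehicle is left out. The diamonds of Slc11a1 lie below 0 in fibroblast-like and T-like cells.

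Fth1, the ferritin chain that oxidises iron for storage, was higher in takinib in all 6 classes. Its level in macrophage-like cells was 18493 CPM [18435, 18550] in vehicle and 36259 [36192, 36326] in takinib. Epithelial-like cells had 1997 CPM in vehicle and 11467 in takinib, a log2 ratio of 2.52 [2.50, 2.55]. The highest level of a compared class outside macrophages was in fibroblast-like cells, at 8063 CPM in vehicle and 24537 in takinib (log2 ratio 1.61). Levels were 1754 and 10955 CPM for T-like, 2218 and 5562 for B-like, and 4876 and 12069 for dendritic-like cells. The T-like log2 ratio went from 2.64 to 1.18 with these genes left out of the clustering. In B-like cells it went from 1.33 to 3.58 with clusters named by score alone. That naming adds an unnamed cluster of 562 takinib and 2 vehicle cells led by Cd79a. With the neutrophil profile subtracted, epithelial-like cells had 2.72-fold, fibroblast-like 2.71-fold, T-like 2.79-fold, dendritic-like 1.99-fold, macrophage-like 1.88-fold and B-like 1.62-fold more in takinib. The order of vehicle levels was macrophage-like, fibroblast-like, dendritic-like, B-like, epithelial-like and T-like, and the counting intervals of neighbours in this order did not overlap.

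Ftl1, the light chain that helps iron settle in the ferritin core, differed far less. It stood at 6113 CPM in vehicle and 7622 in takinib macrophage-like cells, and no class passed 2-fold. The log2 ratio was 0.32 in epithelial-like, 0.19 in fibroblast-like, 0.67 in B-like, 0.30 in dendritic-like and 0.95 in T-like cells. The files also list the pseudogene Ftl1-ps1, a near-identical copy, at 70.4 CPM over all vehicle cells and 57.7 over all takinib cells. Reads from that copy and from Ftl1 may have been shared between them, so small Ftl1 differences are uncertain.

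The number of Fth1 UMIs per Ftl1 UMI is used here to compare cells with each other, not the chains. It was 3.03 [3.01, 3.04] in vehicle and 4.76 [4.74, 4.78] in takinib macrophage-like cells. In epithelial-like cells it was 1.23 and 5.66, in fibroblast-like cells 5.96 and 15.9, and in T-like cells 2.62 and 8.48. In dendritic-like cells it was 2.54 and 5.13, in B-like cells 2.67 and 4.21, and takinib neutrophil-like cells had 15.7. Every class compared had more Fth1 per Ftl1 in takinib, before subtraction of the neutrophil profile. After subtraction the takinib over vehicle fold of Fth1 and that of Ftl1 were nearly equal in B-like cells, at 1.62 and 1.48. They were 2.72 and 1.11 in epithelial-like cells and 2.79 and 1.46 in T-like cells. Both ferritin chains together made up 2.46% of UMIs of vehicle and 4.39% of takinib macrophage-like cells, and 6.58% of takinib neutrophil-like cells.

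**Figure D3:**
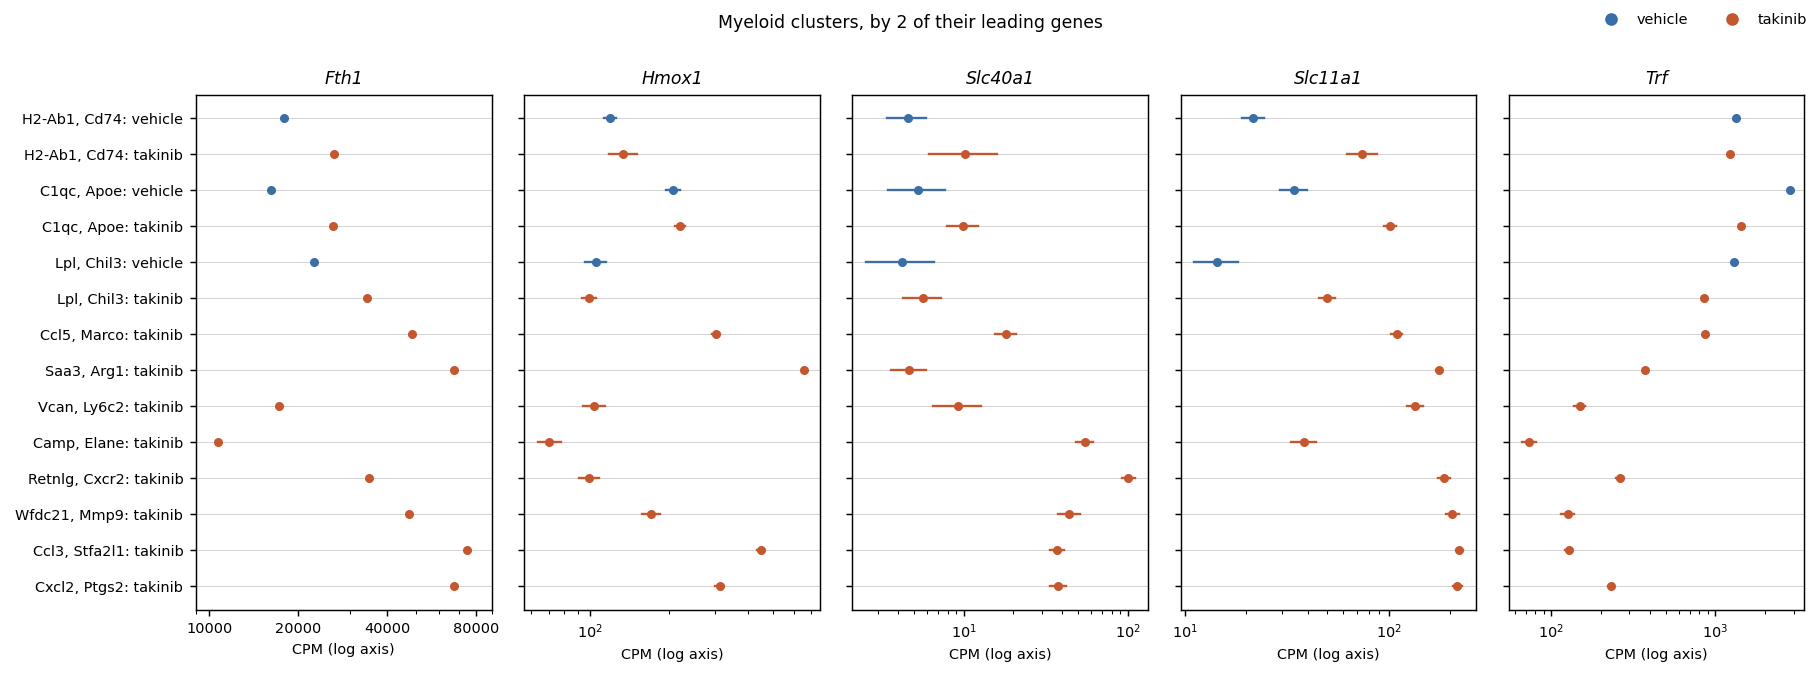
CPM of 5 genes (log axes) in myeloid clusters of at least 100 cells, named by 2 of their leading genes, with exact 95% Poisson intervals; vehicle in blue, takinib in orange. Fth1 was highest in the cluster led by Ccl3, Hmox1 in that led by Saa3, Slc40a1 in that led by Retnlg, and Trf in that led by C1qc of vehicle.

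Macrophage-like cells were not the same mixture in both libraries. A cluster led by MHC class II genes held 55.6% of them in vehicle and 7.17% in takinib, while a cluster led by Ccl5 and Marco held 0.142% and 26.4%. Within the 3 clusters that both libraries filled with 100 cells or more, Fth1 had log2 ratios of 0.56 (led by H2-Ab1), 0.70 (led by C1qc) and 0.59 (led by Lpl and Chil3). The Ccl5 and Marco cluster of takinib had 48446 CPM of Fth1. An unnamed cluster of 2237 takinib and 7 vehicle cells, led by Saa3 and Arg1, had 67168 CPM in takinib. Among neutrophil-like clusters of takinib, Fth1 was 34587 CPM in that led by Retnlg and Cxcr2 and 74586 in that led by Ccl3. A cluster led by Camp and Elane, genes of neutrophil precursors, had 10726.

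Slc40a1, the iron exporter, was sparse: epithelial-like cells had the largest share of the 6 vehicle classes with a UMI at full depth, 9.34%. They were also the deepest of these classes, at a median of 6264.5 UMIs. Free RNA of the near-empty vehicle barcodes held Slc40a1 at 15.3 CPM [7.35, 28.2], from 10 UMIs. In macrophage-like cells Slc40a1 had 4.78 CPM [3.90, 5.79] in vehicle and 11.3 [10.1, 12.5] in takinib. Over only the clusters shared by both libraries the log2 ratio was 0.75, and after subtraction of the neutrophil profile the fold was 1.88, both under 2-fold. Epithelial-like cells had 13.5 and 44.3 CPM, a log2 ratio of 1.71 [1.40, 2.04], and 3.23-fold after subtraction. The log2 ratio was 1.59 in the largest cluster of the class, but 0.91 with each library clustered on its own, under 2-fold. An unnamed cluster led by Tff2 and Reg1, scored closest to epithelial (573 vehicle and 778 takinib cells), had 0.83. Fibroblast-like cells went the other way, with 36 UMIs (13.3 CPM) in vehicle and 17 (4.92 CPM) in takinib, under the count minimum. When each cell was thinned to 1000 UMIs, 0.465% [0.295, 0.697] of vehicle and 1.20% [0.891, 1.57] of takinib macrophage-like cells had a Slc40a1 UMI, and 4.76% [4.39, 5.16] of takinib neutrophil-like cells, against 0.774% of takinib T-like cells. At full depth these shares were 1.76%, 5.11%, 9.69% and 2.805%, with median depths of 3931, 6412, 1799 and 1678 UMIs.

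The highest Slc40a1 level of any class was 261 CPM in erythroid-like cells of takinib, and 908 of its 996 UMIs lay in cells that also held macrophage RNA. Of these 491 cells, 119 had at least 10 UMIs of 6 macrophage genes (C1qa, C1qb, C1qc, Csf1r, Adgre1 and Cd68), a split made after the values were seen. Slc40a1 stood at 1175 CPM in those 119 cells and at 56.8 CPM in the 185 cells with no such UMI. The corresponding Hmox1 levels were 2039 and 32.9 CPM. Spic, a transcription factor of iron-recycling macrophages, stood at 324 and 1.29 CPM, and the adhesion molecule Vcam1 at 2736 and 1.29. Genes of the red cell lineage did not all follow: Tfrc was 105 CPM in the 119 cells and 382 in the 185, Klf1 was 56.6 and 192, and Blvrb was 597.5 and 1091, while Hbb-bs was 61239 and 38271. Median haemoglobin UMIs per cell were 0.738% and 2.225%. The 119 cells held 20.9% of all 3963 Slc40a1 UMIs of the takinib library and 54.0% of its 424 Spic UMIs. With the limit at 1 UMI (306 cells) Slc40a1 was 399 CPM and Hmox1 701, and 25 cells with 5 to 9 UMIs and 17 with 10 to 14 lay near the limit of 10. With takinib clustered on its own, 95 cells formed a cluster led by Vcam1, Cd5l and Slc40a1. It stayed unnamed, with scores of 0.797 for macrophage and 0.633 for erythroid markers. How many of the 119 cells it held was not counted. Whether a barcode here held 1 cell or 2 was not tested.

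**Figure D4:**
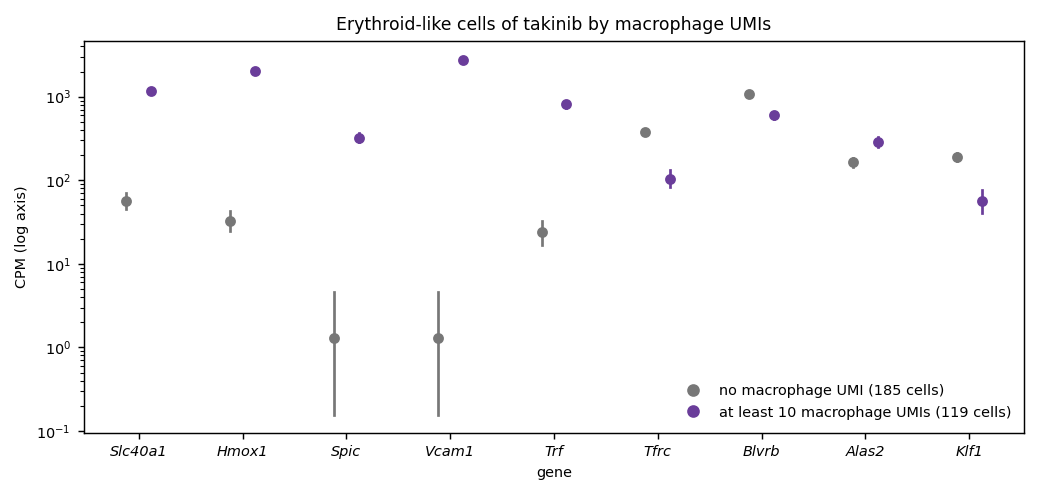
CPM (log axis) of 9 genes in erythroid-like takinib cells with no UMI of 6 macrophage genes (grey, 185 cells) and with at least 10 (purple, 119 cells), with exact 95% Poisson intervals. Slc40a1, Hmox1, Spic, Vcam1 and Trf lie higher in the purple group, Tfrc, Blvrb and Klf1 lower.

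Tfrc, the receptor for transferrin-bound iron, was highest in erythroid-like cells, at 322 CPM [304, 340] in takinib. In macrophage-like cells it was 8.81 CPM in vehicle and 16.5 in takinib, a log2 ratio of 0.90 [0.66, 1.15]. By cluster it differed, at 8.61 and 8.59 CPM in the class II cluster, 8.94 and 19.2 in the C1qc cluster (log2 ratio 1.11) and 9.08 and 11.6 in the Lpl cluster (0.36). Fibroblast-like cells had 13 UMIs (4.81 CPM) in vehicle and 65 (18.8 CPM) in takinib, a log2 ratio of 1.97 [1.09, 2.95]. That value was 0.08 when cells were thinned to 1000 UMIs. Epithelial-like cells had 33.6 and 30.1 CPM, a log2 ratio of -0.16 [-0.40, 0.08]. That ratio differed by sex of origin of the vehicle cells, as given below. A cluster of 89 vehicle and 10 takinib cells of that class, led by Spink4 and Muc2, carried 176 CPM in vehicle. In the largest cluster of the class taken alone the levels were 20.3 and 28.4 CPM, a log2 ratio of 0.48, in the other direction.

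Trf, the plasma iron carrier, was highest in macrophage-like cells and lower there in takinib, at 1671 CPM [1654, 1688] in vehicle and 1045 [1034, 1056] in takinib. Its log2 ratio of -0.68 did not pass 2-fold. T-like cells, with 134 and 57.1 CPM, were the class past 2-fold (log2 ratio -1.23), from 48 vehicle UMIs. Those vehicle T-like cells stood below the free RNA of their library. Epithelial-like cells had 258 and 140 CPM, and fibroblast-like cells 249 and 330, in the opposite direction.

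The vehicle library held cells of both sexes and takinib held no cell with a UMI of the 4 Y-linked genes, so sex of origin differed between the libraries. Vehicle cells with Xist and no Y-linked UMI were counted as of female origin (1075 cells), and those with Y-linked UMIs and no Xist as male (3087 cells). The 5228 vehicle cells with neither and the 168 with both were left out, while all takinib cells were used. In vehicle macrophage-like cells the median depth was 4409.5 UMIs for female, 4592 for male and 3931 for all cells. Trf in vehicle macrophage-like cells was 1004 CPM in cells of female and 1865 in cells of male origin, so takinib, at 1045, lay 1.04-fold [1.00, 1.08] from the female cells. In epithelial-like cells it was 117, 273 and 140 CPM for female vehicle, male vehicle and takinib. Fibroblast-like cells had 169, 317 and 330. In the class II cluster Trf was 1113, 1366 and 1237 CPM, with takinib in between, and its log2 ratio between libraries was -0.11. Within the Lpl and Chil3 cluster Trf was 861, 1907.5 and 857 CPM. In the C1qc cluster, with 54 female cells, takinib was below both, at 1842, 3100.5 and 1440. Cells of different sex come from different animals, so sex and animal cannot be told apart. Hmox1 in macrophage-like cells was also lower in female than in male vehicle cells, but takinib lay above both, at 85.5, 147 and 204 CPM, 2.39-fold [2.09, 2.74] over the female cells. That did not hold in the Lpl and Chil3 cluster, where takinib was in between, at 92.4, 119.6 and 99.4 CPM, 1.075-fold [0.909, 1.28] over female cells. In the class II and C1qc clusters takinib was 1.05-fold [0.898, 1.22] and 1.06-fold [0.944, 1.19] over male cells. Over female cells it was 2.03-fold [1.47, 2.85] and 2.315-fold [1.51, 3.75] there, from 45 and 21 female UMIs. In all macrophage-like cells Fth1 of takinib was above female and male vehicle cells, at 22116, 17805 and 36259, as was Slc11a1, at 22.6, 21.3 and 85.6. Of the 558 female cells 347 lay in the Lpl and Chil3 cluster, while of the 1385 male cells 851 lay in the class II cluster. Tfrc in epithelial-like cells was 9.24 CPM in female (8 UMIs) and 34.8 in male vehicle cells and 30.1 in takinib. Takinib was thus 3.26-fold [1.64, 7.61] over female and 0.86-fold [0.711, 1.055] over male cells. In the largest epithelial-like cluster the Tfrc levels were 9.24, 21.85 and 28.4 CPM, with takinib above both.

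**Figure D5:**
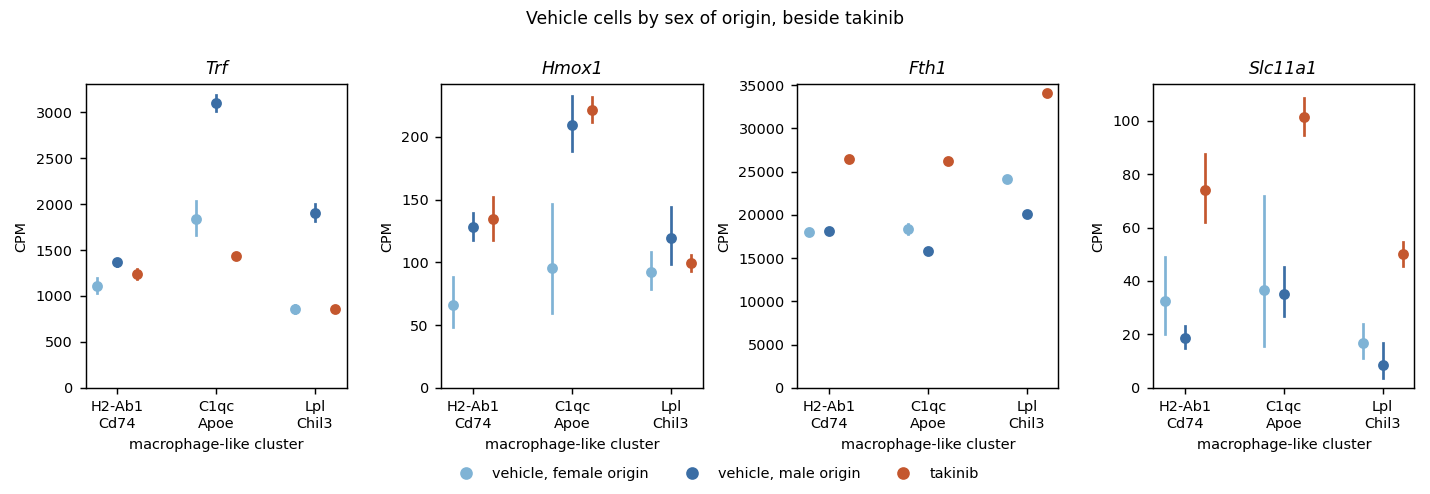
CPM of Trf, Hmox1, Fth1 and Slc11a1 in 3 macrophage-like clusters, for vehicle cells of female origin (light blue), vehicle cells of male origin (dark blue) and takinib (orange), with exact 95% Poisson intervals. Trf of takinib lies near female vehicle cells in the Lpl and Chil3 cluster, while Fth1 and Slc11a1 of takinib lie above both in each cluster.

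Slc11a1, the metal transporter of phagosomes, had a higher level in takinib in each of the 6 classes before subtraction of the neutrophil profile. That rested on 1 vehicle and 12 takinib UMIs in B-like cells (log2 interval [-0.66, 7.52]) and on 2 and 20 in dendritic-like cells. In macrophage-like cells Slc11a1 had 23.1 CPM [21.1, 25.2] in vehicle and 85.6 [82.3, 88.9] in takinib, a log2 ratio of 1.89 [1.75, 2.03]. The ratio was 1.78, 1.56 and 1.80 in the 3 clusters with cells of both libraries, and the fold was 3.38 after subtraction of the neutrophil profile. In epithelial-like cells 10 vehicle and 311 takinib UMIs gave 1.40 and 26.9 CPM (log2 ratio 4.27), and the takinib level was 4.77 CPM after subtraction. Fibroblast-like cells had 5 and 54 UMIs and T-like cells 3 and 60, and their log2 ratios of 3.08 and 1.73 turned to -0.16 and -0.50 after it. Monocyte-like cells of takinib had 135 CPM and neutrophil-like cells 212. Slc11a2, the transporter of endosomes and of the gut, was 9.55 CPM in vehicle and 14.2 in takinib macrophage-like cells. Epithelial-like cells had 13.1 and 12.03 CPM of it, and fibroblast-like cells 15.9 and 15.6.

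Hmox1, which opens the heme ring, was 137 CPM [132, 142] in vehicle and 204 [199, 209] in takinib macrophage-like cells. Within the 3 shared clusters together its log2 ratio was 0.16, and the Ccl5 and Marco cluster of takinib, nearly absent from vehicle, had 304 CPM. The Saa3 and Arg1 cluster had 656.5 CPM in takinib (9597 UMIs) and 694 in the 7 vehicle cells (21 UMIs). Epithelial-like cells had 80 and 848 UMIs, 11.2 and 73.4 CPM (log2 ratio 2.72 [2.38, 3.07]), and 4.03-fold was left after subtraction. A takinib cluster of 217 such cells, led by the stomach genes Gkn2 and Gkn1, had 214 CPM of Hmox1 and 23532 of Fth1 beside 23599.6 CPM of S100a8 and S100a9 together. Without it and the Spink4 cluster the class kept log2 ratios of 2.51 for Hmox1 and 2.48 for Fth1. The cells left still held 11964 CPM of S100a8 and S100a9 together in takinib and 68.8 in vehicle. In fibroblast-like cells the Hmox1 levels were 23.7 and 58.5 CPM, with 1.71-fold left after subtraction. T-like cells held only 3 vehicle UMIs against 112. Thinned to 1000 UMIs, 10.4% of vehicle and 14.3% of takinib macrophage-like cells had a Hmox1 UMI, 20.2% of takinib neutrophil-like cells, and 3.77% of takinib T-like cells. Blvrb was 122 and 159 CPM in macrophage-like cells (log2 ratio 0.38) and highest in erythroid-like cells of takinib, at 897 CPM. It was 142 CPM in vehicle and 76.7 in takinib B-like cells, from 57 and 86 UMIs.

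Ncoa4, which delivers ferritin for breakdown, was 46.3 CPM [43.5, 49.3] in vehicle and 90.7 [87.4, 94.2] in takinib macrophage-like cells. Its log2 ratio was 0.33, 0.70 and 0.77 in the class II, C1qc and Lpl clusters. Fibroblast-like cells had 89.2 and 96.4 CPM, a log2 ratio of 0.11 [-0.13, 0.36]. The neutrophil-like level of 41.5 CPM was below that of takinib macrophage-like cells, and the fold after subtraction was 2.02, past the limit.

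Of 77 other iron and heme genes in 7 lists, 63 reached 50 counts in macrophage-like cells, and 13 of these were past 2-fold, all higher in takinib, where 5.93% of all genes were. Iron scavenging had 4 of 5 measured genes higher, with a median log2 ratio of 2.15 beside 0.04 over all genes compared. Lcn2, which binds bacterial iron carriers, went from 10.85 to 999.7 CPM, Hp, which binds haemoglobin, from 81.1 to 448, and Cd163, the macrophage receptor for haptoglobin-bound haemoglobin, from 7.51 to 33.3. Lcn2 and Hp were also abundant in takinib neutrophil-like cells, at 12668 and 2047 CPM. All 4 measured haemoglobin genes were higher, such as Hbb-bs at 2.60 and 71.5 CPM, and erythroid-like cells were 2 in vehicle and 491 in takinib; the part of their RNA in this was not tested. Iron uptake and release had 3 of 13 higher (Steap4, Lrp1 and Hamp) and heme transport and breakdown 2 of 10 (Flvcr2 and Spic). None of 8 genes of iron regulation and ferritinophagy, 11 of heme synthesis or 12 of iron-sulfur cluster assembly passed 2-fold there.

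In epithelial-like cells 60 of these genes reached 50 counts, of which 9 were higher (8.39% of all genes were) and 2 lower (6.57%). Lcn2 went from 218 to 2269 CPM, Ltf from 3.21 to 205 and Hp from 5.17 to 310. Steap4, a metalloreductase, went from 2.79 to 30.7, Cybrd1, which reduces iron for uptake, from 1.68 to 22.15, and Fbxl5, which marks an iron regulatory protein for breakdown, from 75.7 to 163. Fbxl5 stood at 589 CPM in takinib neutrophil-like cells. The other 3 were Hba-a1, Hbb-bs and Hbb-bt. Lower were Slc22a17, at 12.3 and 2.16, and Uros of heme synthesis, at 12.98 and 5.11. In fibroblast-like cells 51 reached it, with 9 higher (7.26% of all genes) and 2 lower (11.5%). There Steap1 went from 9.99 to 61.4 CPM, while Steap3 went from 47.0 to 13.03 and the iron oxidase Heph from 21.5 to 8.40. Alad of heme synthesis was higher, at 10.7 and 27.2. Steap4, Lcn2, Hp, Hbb-bs and Hbb-bt were higher as well. The neutrophil profile was not subtracted from the list genes in any class, so its share in these values was not tested.

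Over the 18 profiles of at least 100 cells, each a class in a library, the genes with the closest log2(CPM + 10) pattern were listed for each member. These profiles share libraries and depth. Slc40a1 was most like Nqo1 (Pearson r = 0.905), Tmem40 and Gclm (0.891), Slc11a1 most like Fpr2 (0.940), Igsf6 and Cd33, and Tfrc most like Car1 (0.916), Ank1 and Blm. Fth1 was most like Rab32 and Cebpb (0.941 each) and Rnf149, Ftl1 most like Atp6v0c, Atp6v0b and Ccl6, and Hmox1 most like Grina, Slc16a10 and Il1a. Trf was most like Vsig8, Gabbr2 and Gdf15, Slc11a2 most like Gpsm2, Thg1l and Slc16a1, Blvrb most like C6, Gdf3 and Spic, and Ncoa4 most like Acsl4, Adhfe1 and Clmp. Among the members themselves, r was 0.829 for Fth1 with Hmox1, 0.825 for Hmox1 with Slc11a1 and 0.804 for Fth1 with Ftl1. It was 0.794 for Fth1 with Slc11a1, 0.765 for Ftl1 with Hmox1 and 0.757 for Slc40a1 with Tfrc. Slc40a1 and Tfrc were both highest in the erythroid-like takinib profile, which mixes cells. They stood at 1175 and 105 CPM in its cells with at least 10 macrophage UMIs, and at 56.8 and 382 in those with none.

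Promoter windows of RefSeq (GRCm38.p6) were found for 6 of the 10 genes. TGANNNNGC, a loose form of the antioxidant response element core, was present on either strand in 5 of their 11 windows (of Blvrb, Ncoa4 and Slc11a1), and in 41.3% of all 32851 windows. The stricter TGACNNNGC, which overlaps it, was in 1 of the 11, of Ncoa4, and in 12.4% of all.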

How the data were processed

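Raw UMI counts per gene and barcode were deposited by the authors, from Cell Ranger 4 for vehicle and 6.1.1 for takinib, per the file headers. The submitters' processing notes name Cell Ranger 2.1.1, STAR 2.0.4b, featureCounts 1.45 and mm10, with no role or order, so which made the values is not known; the chemistry is not given in the sources used here. Depth was 80850334 UMIs over 704261 unfiltered vehicle barcodes and 139292875 over 34158 takinib barcodes.

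Barcodes with at least 1000 UMIs, 500 genes and at most 20% mitochondrial UMIs were kept. Scrublet doublets were removed by its automatic threshold in vehicle (314 barcodes) and as the highest 6% of scores in takinib (1607), where the automatic call marked 0.00373%. Clustering ran over both libraries in scanpy 1.11.5 (10000 scaled UMIs per cell, 2000 variable genes including Hmox1, Slc40a1 and Tfrc, 30 components, 15 neighbours, Leiden resolution 1, seed 1), giving 25 clusters. A cluster was named for the class with the highest mean scaled marker level. This needed at least 3 markers detected in 10% of its cells and no other class at 0.75 of the score. Its 10 leading genes also had to hold no more markers of another class. Only the 2-fold calls and the intervals of the ratios were checked on simulated counts. Filtering, doublet removal, clustering, naming and the neutrophil subtraction were not. The genes, lists and naming rule were chosen with earlier results of these data known. Ratios are of CPM without a pseudocount. Genes named are all 10 members, list genes past 2-fold in macrophage-like, epithelial-like or fibroblast-like cells (some are not reported here) and the 3 most similar genes of each. The iron-responsive element search was widened to UTRs after the data were seen, as was the split of erythroid-like cells. A count of 0 was set to 3 counts for bounds.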

Additional observations from a re-analysis of the deposited data

How the results depend on the processing

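The number of the 10 genes past 2-fold changed by over 1.5 times in each class under some alternatives. B-like cells (1) had 6 with the clustering run without these genes, 7 with clusters named by score alone, 2 with totals without mitochondrial and haemoglobin genes, 0 after the neutrophil subtraction, 3 with no count minimum and 3 at 1.5-fold. Dendritic-like cells (1) had 2 with each library clustered on its own, 0 after the subtraction, 4 with no minimum and 2 at 1.5-fold. The 4 include Slc40a1, with 0 vehicle and 2 takinib UMIs, which counted as lower only because the 0 was set to 3 counts. Macrophage-like cells (2) had 1 without these genes in the clustering, 4 by score alone, 1 with CPM plus 10, 1 over shared clusters (an alternative chosen after seeing the data) and 6 at 1.5-fold. Epithelial-like cells (4) had 7 at 1.5-fold, fibroblast-like cells (4) had 1 when thinned to 1000 UMIs and 2 after the subtraction, and T-like cells (4) had 2 when thinned, 2 without these genes in the clustering and 2 after the subtraction. Slc11a1 reversed after the subtraction, to -0.16 in fibroblast-like and -0.50 in T-like cells; the construction removes neutrophil RNA. List genes past 2-fold went from 4 to 12 in B-like, 3 to 9 in dendritic-like, 11 to 17 in epithelial-like and 11 to 18 in fibroblast-like cells with a minimum of 10 counts. Without thinning, cells with a UMI were 31.3%, 49.4% and 35.3% (vehicle macrophage-like, takinib macrophage-like and neutrophil-like) for Hmox1, and 1.76%, 5.11% and 9.69% for Slc40a1. Fth1 in T-like cells was 1.18 without these genes in the clustering, from 2.64, and Hmox1 there 1.06, from 2.63. The other causes were not tested. Of 13 alternatives, 12 pairs of class and alternative gave no value, since fewer than 100 cells bore the class name in a library. In some pairs this was because a cluster stayed unnamed, such as 500 cells scored closest to fibroblast when takinib was clustered on its own. No paired analysis was possible because each group has 1 library. Sex, animal, depth and library cannot be told apart from treatment beyond the values given.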

Other observations

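Hamp encodes hepcidin, the peptide hormone that closes ferroportin, and is best known from liver. It had 6 UMIs over all kept vehicle cells and 624 over those of takinib. Of these, 393 lay in neutrophil-like cells, 286 of them in the cluster led by Ccl3 (26.3 CPM), where Slc40a1 stood at 37.2 CPM, and 99 in the macrophage-like cluster led by Ccl5 and Marco (9.54 CPM). The neutrophil-like cluster led by Retnlg and Cxcr2 had the highest Slc40a1 of that class, at 101 CPM. These genes and clusters were singled out after their values were seen.

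In 10 takinib cells of the smallest shared epithelial-like cluster, Slc40a1 had 107 UMIs (1106 CPM), against 19 UMIs (31.0 CPM) in its 89 vehicle cells. With 10 cells this is a value and not a comparison.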
